A study of Mus musculus with 4 samples.

Results

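The 10 genes described here mark mature B cells, most of them coding for surface proteins, and were followed in T8 leukemia cells transduced with or without an IRF4 vector. The genes *Ms4a1* (CD20), *Cr2* (CD21 and CD35), *Fcer2a* (CD23), *Fcrla*, *Fcrl1*, *Fcrl5*, *Cd38*, *Cd37*, *Cd180* (RP105) and *Cd55* were chosen by name, and these are 10 of the 55359 genes in the deposited counts. T8 is a leukemia line grown from the tumor of 1 *Irf4*-/- mouse, so all 4 libraries carry the *Irf4* deletion and stem from the same leukemia. Cells were transduced with a retrovirus coding for GFP alone (EV-RV) or for GFP plus IRF4 (IRF4-RV). Viable cells were collected in duplicate 24 h later for bulk RNAseq, giving 2 libraries per group. Titles and tissue labels name T8, whereas a protocol field names T11, and the libraries were taken as T8.

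Precursor B cells carry the surrogate light chain and the IL-7 receptor, and most of the genes followed here are switched on or raised as the cells leave the bone marrow stages and become naive follicular or marginal zone B cells. Their products tune the B cell receptor (complement and Fc receptor-like coreceptors, tetraspanins), sense microbial ligands or shield the cell from complement. IRF4 is a transcription factor that acts in the light chain stage of precursor B cells and again in activated B cells and plasma cells. Among the ways it binds DNA are at interferon-type elements and together with the ETS factors PU.1 and SPIB. The counts measure RNA and give no level of protein on the surface.

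The libraries held between 31230223 and 37817752 counts, and 3 counts, taken as the detection limit, corresponded to 0.0824 to 0.0952 CPM (counts scaled to a common library size after TMM scaling). This floor covers counting error only. *Irf4* was counted 8070 and 7600 times under EV-RV against 95578 and 90693 under IRF4-RV (log2 fold change 3.46, standard error 0.0907, edgeR adjusted p = 1.14e-06). Reads from the vector and from the mutated locus are not separated, and counts per gene do not show which exons the EV-RV reads cover, so the deletion was not checked in these libraries. Of 14637 genes tested with edgeR's quasi-likelihood test at an FDR of 0.1, 29.7% were called, 16.0% as higher and 13.7% as lower with IRF4-RV. Scaling by library size alone gave 1743 higher and 2867 lower instead of 2340 and 2009, and moved the median log2 fold change from 0.0073 to -0.08. The B lineage genes *Cd79a*, *Cd79b* and *Pax5* each had at least 6670 counts in every library, whereas *Cd8a*, *Cd8b1*, *Ncr1*, *Adgre1*, *S100a8*, *S100a9* and *Camp* of T cells, NK cells, macrophages and granulocytes had 0 counts in all of them. Summed markers were 39 to 49 counts under EV-RV against 45 to 65 under IRF4-RV for T and NK cells (9 genes), 46 to 49 and 270 to 289 for macrophages (7 genes, mostly *Mrc1*), and 2 to 3 and 59 to 72 for granulocytes (6 genes, nearly all *Ly6g*). Of 8 stromal and follicular dendritic cell genes, 7 (all but *Mfge8*) summed to 42.2 and 77.6 CPM under EV-RV against 40.0 and 191 CPM under IRF4-RV, so that the IRF4-RV replicate 2 library stands apart.

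The markers split into a set of clearly transcribed genes and a set with few reads. *Cd37*, *Cd180*, *Fcrl1* and *Fcrla* passed 5 CPM in every library. *Ms4a1*, *Cr2*, *Fcer2a*, *Fcrl5* and *Cd38* were each below 1 CPM in both EV-RV libraries, and *Fcer2a* and *Fcrl5* remained below it in all 4. Of the genes of CD20, CD21 and CD23, which are used to define mature B cells, *Fcer2a* was at or under the limit in every library, and *Ms4a1* and *Cr2* were detected at a low level, between 10 and 45 counts. Of the 10 genes, 8 passed the filter on low counts and were tested. With IRF4-RV, 3 of these 8 (37.5%) were called higher and 0 lower, against 16.0% of all genes called higher. The 3 were *Fcrla*, *Cd38* and *Fcrl1*. They were also called without the IRF4-RV replicate 2 library, in which the stromal genes were high, whereas the part of *Mrc1* and *Ly6g*, which rose with IRF4-RV as well, was not tested. Both IRF4-RV libraries lay above both EV-RV libraries for 6 of the 8, against 31.3% of all genes tested (61.3% without overlap in either direction), and also for *Fcrl5*, which was not tested. The median log2 fold change of the 8 was 0.66, against 0.0073 for all genes tested. The markers were chosen with earlier results of these data known. Comparing them with all genes therefore describes the list and does not test whether such genes rise as a group. When every gene with at least 1 count was tested, 5 members were called higher, with *Cr2* and *Fcrl5* added, against 8.30% of the 30985 genes tested in that setting. *Fcrl5* had reads only with IRF4-RV and entered that test through them alone. In bulk RNA, more cells that express a gene and more RNA per cell cannot be told apart.

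**Figure D1:**
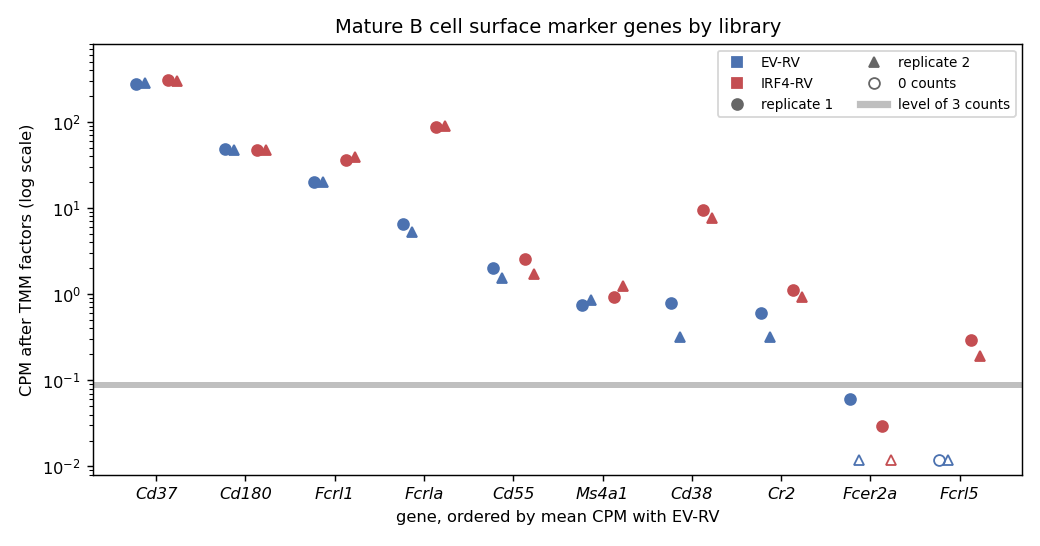
CPM of each of the 10 genes on a log10 axis, with EV-RV libraries in blue and IRF4-RV libraries in red and 1 point per library; libraries with 0 counts are open symbols at the lower edge, and the gray line is the level of 3 counts. *Fcrla* and *Cd38* show the widest gap between the groups, *Cd180* and *Cd55* overlap, and *Fcer2a* and *Fcrl5* sit at the bottom.

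*Fcrla* codes for an Fc receptor-like protein that has no membrane anchor and is kept inside B cells, so among the genes followed it is not a true surface protein. It was counted 219 and 166 times under EV-RV against 2918 and 3295 under IRF4-RV. The groups lie far apart, the lower IRF4-RV library at 13.1 times the CPM of the higher EV-RV library. The level rose from 5.91 ± 0.918 CPM to 88.3 ± 3.07 CPM (SD, n = 2), by 3.90 on the log2 scale (standard error 0.122, 95% interval 3.61 to 4.18, edgeR adjusted p = 1.71e-06). Leaving out each library in turn kept it between 3.75 and 4.06. The gene (ENSMUSG00000038421) lies on the minus strand of chromosome 1 of GRCm38 from 170917576 to 170927583.

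*Fcrl1*, a receptor with activating motifs in its tail that is carried by most B cells, was already transcribed with EV-RV. Its counts were 675 and 630 under EV-RV against 1226 and 1404 under IRF4-RV. Both IRF4-RV libraries were higher, though by far less than for *Fcrla*. The level went from 20.1 ± 0.176 CPM to 37.4 ± 1.67 CPM (SD, n = 2), a 1.86-fold rise (log2 0.89, standard error 0.0913, 95% interval 0.68 to 1.11, edgeR adjusted p = 0.000423). The intervals of the log2 fold changes of *Fcrl1* and *Fcrla* do not meet. *Fcrl1* (ENSMUSG00000059994) spans 87376387 to 87402934 on the plus strand of chromosome 3.

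*Fcrl5*, a related receptor found on marginal zone and B-1 cells, begins 32839 bases beyond *Fcrl1* on the same chromosome and strand (ENSMUSG00000048031, chromosome 3, 87435773 to 87500678). It had 0 and 0 counts under EV-RV against 10 and 7 under IRF4-RV. Reads were thus seen only in the IRF4-RV libraries, at levels too low for the filter. Its mean CPM with IRF4-RV was 2.63 times the mean level of 3 counts in the EV-RV libraries. The counting error of its own few reads is not included in this value. When every gene with at least 1 count was tested, its edgeR adjusted p was 0.00724. It entered that test through its IRF4-RV reads alone, so this value is no separate evidence of a rise. It also passed the count filter when an EV-RV library was left out, again through the IRF4-RV libraries alone. Its log2 fold change was then 6.06 without EV-RV replicate 1 and 6.09 without EV-RV replicate 2, each resting on 0 counts under EV-RV. DESeq2 gave it no adjusted p.

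Upstream sequences of *Fcrla*, *Fcrl1* and *Fcrl5*, the Fc receptor-like genes that were higher or seen with IRF4-RV only, are shown from the RefSeq promoter table (GRCm38.p6, up to 250 bases before the start, 5′ to 3′ on the strand of the gene). The windows are chr1:170927584-170927833 (minus strand), chr3:87376137-87376386 (plus) and chr3:87435532-87435772 (plus). Capitals mark matches to a pair of GAAA separated by 2 bases, an interferon-type pattern, or to GGAAGT, an ETS-type pattern, on either strand, the latter reading ACTTCC when it lies on the other strand.
Fcrla: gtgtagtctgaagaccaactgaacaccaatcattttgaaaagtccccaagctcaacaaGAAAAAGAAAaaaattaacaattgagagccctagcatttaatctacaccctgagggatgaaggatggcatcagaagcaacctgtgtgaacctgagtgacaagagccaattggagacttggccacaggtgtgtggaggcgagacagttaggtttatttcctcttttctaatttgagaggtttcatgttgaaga
Fcrl1: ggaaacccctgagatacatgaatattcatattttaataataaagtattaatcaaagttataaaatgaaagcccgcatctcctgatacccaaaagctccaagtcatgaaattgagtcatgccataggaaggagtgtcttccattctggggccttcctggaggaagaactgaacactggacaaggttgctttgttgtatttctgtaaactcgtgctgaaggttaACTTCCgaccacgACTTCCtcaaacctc
Fcrl5: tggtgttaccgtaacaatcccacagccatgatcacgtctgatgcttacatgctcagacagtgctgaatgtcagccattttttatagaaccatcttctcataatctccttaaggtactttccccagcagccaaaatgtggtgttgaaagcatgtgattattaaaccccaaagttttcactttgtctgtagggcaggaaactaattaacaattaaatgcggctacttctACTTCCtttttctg
The *Fcrla* window held the GAAA pair, its leading base at position -192 from the start. This pattern was present in 3.44% of the 32851 promoters of the table, and *Fcrla* was the only 1 of the 9 genes found there that had it. The composite pattern, GGAA and GAAA separated by 2 bases, which cannot begin at the same base as the other, was in 2.72% of all promoters and in 0 of the 9 genes. GGAAGT was in 23.8% of all promoters and in 8 of the 12 promoters of the 9 genes, which belong to 7 genes. It lay at positions -15 and -28 from the start of *Fcrl1* and at -23 from that of *Fcrl5*. It was not in the window of *Fcrla*. The E-box CACGTG, which reads the same on both strands, was in 7.15% of promoters and in that of *Cd37*. These are matches of letters in short windows, and binding was not measured.

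Around these genes, the Fc receptors behaved unequally. *Fcgr2b*, the inhibitory IgG receptor of B cells and the next tested gene to *Fcrla* on 1 side at 31034 bases, rose from 21.6 to 39.0 CPM (log2 0.85, edgeR adjusted p = 0.00047). *Dusp12*, the next tested gene on the other side at 32036 bases, had a log2 fold change of -0.34 and was not called (edgeR adjusted p = 0.163). *Fcmr*, the receptor for IgM, rose from 5.18 to 34.3 CPM (log2 2.73). The activating receptor *Fcgr3* fell from 6.33 to 2.32 CPM (log2 -1.45, edgeR adjusted p = 0.000952). *Fcrlb*, the closest relative of *Fcrla*, had 12 and 1 counts under EV-RV against 2 and 3 under IRF4-RV and was not tested. In the list of 18 Fc receptor and Fc receptor-like genes, which includes *Fcer2a*, *Fcrla*, *Fcrl1* and *Fcrl5*, 8 were tested, of which 4 rose, 1 fell and 3 were not called (median log2 0.87). Of all genes tested, 16.0% were called higher and 13.7% lower, so the 1 fall is no trait of this list.

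*Cd38*, an ectoenzyme that splits NAD and is carried at high level by naive B cells of the mouse, had with *Fcrla* the largest log2 fold changes of the 8 tested genes. It was counted 26 and 10 times under EV-RV against 320 and 280 under IRF4-RV. The lower IRF4-RV library was at 9.87 times the CPM of the higher EV-RV library, so the groups were clearly apart despite few counts with EV-RV. The level rose from 0.548 ± 0.327 CPM to 8.57 ± 1.24 CPM (SD, n = 2), by 3.94 on the log2 scale (standard error 0.327, 95% interval 3.19 to 4.70, edgeR adjusted p = 0.000152). The size depends on the EV-RV libraries, with 4.73 when EV-RV replicate 1 was left out and 3.45 when EV-RV replicate 2 was left out, both called. *Cd38* (ENSMUSG00000029084) lies on the plus strand of chromosome 5 from 43868553 to 43912375.

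The paralog *Bst1* (CD157), which ends 24567 bases before *Cd38* and is already carried by precursor B cells, changed much less. It was counted 1597 and 1450 times under EV-RV against 2065 and 2080 under IRF4-RV. The groups did not overlap and the gene was called (log2 0.33, edgeR adjusted p = 0.0262), but not when IRF4-RV replicate 1 was left out (adjusted p = 0.216). *Gm7879*, 769 bases beyond the other end of *Cd38*, was not called (log2 -0.10, edgeR adjusted p = 0.723). Of 9 genes listed for nucleotide and NAD ectoenzymes and their supply, 8 were in the counts and 6 tested. Against 16.0% called higher and 13.7% lower of all genes tested, 4 of these 6 rose and 0 fell (median log2 0.65). These were *Cd38*, *Bst1*, *Entpd1* (CD39, which splits ATP) with a rise from 18.6 to 54.5 CPM, and *Nampt*, which makes the NAD precursor, from 88.5 to 173 CPM.

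*Ms4a1*, *Cr2* and *Fcer2a* gave no call. *Cr2* codes for the receptor of complement fragment C3d and, by splicing in the mouse, also for the longer CR1. Its counts were 20 and 10 under EV-RV against 38 and 34 under IRF4-RV. Both IRF4-RV libraries were higher, but the level was around 1 CPM or below, at 0.458 ± 0.200 CPM and 1.03 ± 0.133 CPM (SD, n = 2). The log2 fold change was 1.15 with a 95% interval from 0.12 to 2.19, and the edgeR adjusted p of 0.109 narrowly missed the threshold. Over the other settings its adjusted p ran from 0.0343 to 0.414. Leaving out each library in turn gave log2 fold changes from 0.78 to 1.68. Follicular dendritic cells also carry *Cr2*. Of their genes, *Madcam1* had 0 counts in every library and *Cxcl13* had 1 count in IRF4-RV replicate 2 and 0 in the others. *Mfge8*, listed for stromal and follicular dendritic cells as well, was transcribed. With it, the 8 listed genes summed to 81.3 and 118 CPM under EV-RV and to 91.7 and 244 CPM under IRF4-RV. Without it, they summed to 42.2 and 77.6 CPM under EV-RV and to 40.0 and 191 CPM under IRF4-RV. The part of such cells in the *Cr2* reads was not tested. *Cr2* (ENSMUSG00000026616) lies on the minus strand of chromosome 1 from 195136811 to 195176716, and its upstream window, chr1:195176720-195176969, is shown because the call depended on the filter.
Cr2: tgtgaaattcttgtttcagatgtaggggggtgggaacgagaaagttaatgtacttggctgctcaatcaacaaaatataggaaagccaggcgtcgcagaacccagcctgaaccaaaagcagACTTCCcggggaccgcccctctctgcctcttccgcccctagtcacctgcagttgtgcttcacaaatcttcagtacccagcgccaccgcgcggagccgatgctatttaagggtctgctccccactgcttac
The capitals again mark GGAAGT on the other strand, at position -130.

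*Ms4a1*, the gene of CD20, a membrane protein of B cells from the precursor stage onward, was counted 25 and 27 times under EV-RV against 31 and 45 under IRF4-RV. The IRF4-RV libraries were the higher ones by a few reads. Its log2 fold change was 0.42 (95% interval -0.43 to 1.28, edgeR adjusted p = 0.466), so that neither a small fall nor a rise of somewhat over 2-fold could be told from no change at this depth. *Ms4a1* (ENSMUSG00000024673) lies on chromosome 19 from 11249675 to 11266241, minus strand. Of 15 genes of the MS4A family and its relatives, 5 were tested. *Ms4a4c*, with 5 and 9 counts under EV-RV against 51 and 96 under IRF4-RV, was the only 1 called (log2 3.24, edgeR adjusted p = 0.00268), and the median of the 5 was 0.60. The share called higher among all genes tested was 16.0%.

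*Fcer2a*, the gene of CD23, the low-affinity IgE receptor of follicular B cells, had 2 and 0 counts under EV-RV against 1 and 0 under IRF4-RV. All libraries were under the floor of 3 counts, so a difference was not detectable at this depth and no fold is given. *Fcer2a* (ENSMUSG00000005540) lies on chromosome 8 from 3681737 to 3694175, minus strand. *Trappc5*, 482 bases from it, had 1051 to 1385 counts in the same libraries and fell (log2 -0.32, edgeR adjusted p = 0.0638). *Adam10*, the protease that sheds CD23, was at 165 and 181 CPM and was not called (log2 0.14, edgeR adjusted p = 0.220).

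A partner of CD21 was abundant where *Cr2* was not. *Cd81*, a tetraspanin of the CD21 coreceptor, stood at 53.4 CPM per kilobase of exon with EV-RV, against 0.0565 for *Cr2*. It was not called with IRF4-RV (log2 -0.08, edgeR adjusted p = 0.489). *Cr1l* (Crry), a complement regulator whose gene ends 5225 bases from *Cr2*, was not called either (log2 0.16, edgeR adjusted p = 0.336). Of 14 coreceptor and complement genes, *Cr2* and *Cd55* included, 11 were tested, of which 2 rose, *C3* and *Cd93*, and 0 fell (median log2 0.27). Over all genes tested, 16.0% were called higher and 13.7% lower, so 2 rises of 11 are close to the general share. *C3*, the source of the ligand of CD21, was counted 17 and 36 times under EV-RV against 58 and 203 under IRF4-RV (log2 2.15, edgeR adjusted p = 0.0358). It was highest in the library in which the stromal genes were highest, and its adjusted p was 0.101 without that library, with a log2 fold change of 1.06, and 0.138 without EV-RV replicate 1, with 1.66. *Cd93*, a receptor of immature B cells and of plasma cells, rose by 0.62 on the log2 scale (edgeR adjusted p = 0.00339).

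*Cd55*, the decay-accelerating factor that protects cells from complement, was counted 67 and 48 times under EV-RV against 86 and 63 under IRF4-RV. The groups overlapped, with EV-RV replicate 1 above IRF4-RV replicate 2 in CPM. Its log2 fold change was 0.27 (95% interval -0.43 to 0.97, edgeR adjusted p = 0.576), and it turned to -0.05 when IRF4-RV replicate 1 was left out. *Cd55* (ENSMUSG00000026399) lies on chromosome 1 from 130439027 to 130462744, minus strand, and shares 102 exon bases (2.1%) with *Gm16083* on the other strand. The paralog *Cd55b* had 1 count in all 4 libraries together.

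*Cd37*, a tetraspanin of mature B cells, was the most abundant of the 10 genes in all libraries. It was counted 9102 and 8985 times under EV-RV against 10334 and 10905 under IRF4-RV. After scaling this was 272.8 and 285.0 CPM under EV-RV against 305.1 and 299.5 CPM under IRF4-RV, so the groups were narrowly apart. The log2 fold change of 0.12 (95% interval -0.05 to 0.28, edgeR adjusted p = 0.287) was not called, and the interval holds no rise above 0.28. *Cd37* (ENSMUSG00000030798) lies on the minus strand of chromosome 7 from 45233632 to 45239115 and shares 13 exon bases (0.369%) with *Tead2* on the other strand. Its share of the summed CPM of the 10 genes was 77.4% and 79.1% under EV-RV against 62.3% and 61.5% under IRF4-RV, while that of *Fcrla* was 1.86% and 1.46% under EV-RV against 17.6% and 18.6% under IRF4-RV.

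Other tetraspanins moved in either direction. *Cd53*, a tetraspanin of leukocytes, rose from 174 to 276 CPM (log2 0.67, edgeR adjusted p = 0.000794), and *Tspan2* from 22.9 to 70.1 CPM (log2 1.61). *Tspan4* fell from 54.5 to 29.0 CPM (log2 -0.91, edgeR adjusted p = 0.00224). Of 18 tetraspanins and partners, 16 were tested, of which 7 rose, 2 fell and 7, *Cd37* and *Cd81* among them, were not called (median log2 0.34). With 16.0% of all genes tested called higher and 13.7% lower, the 2 falls are no trait of this list.

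*Cd180*, which codes for RP105, a relative of the Toll-like receptors on B cells, stayed at about the same level. It was counted 1631 and 1486 times under EV-RV against 1611 and 1697 under IRF4-RV. The groups overlapped, at 48.0 ± 1.24 CPM and 47.1 ± 0.676 CPM (SD, n = 2). Its log2 fold change was -0.03 with a 95% interval from -0.22 to 0.16 (edgeR adjusted p = 0.849). *Cd180* (ENSMUSG00000021624) lies on the plus strand of chromosome 13 from 102693558 to 102739629 and shares 182 exon bases (4.04%) with *Mast4* on the other strand. *Ly86* (MD-1), without which RP105 does not reach the surface, rose from 35.3 ± 2.37 CPM to 58.2 ± 3.74 CPM (SD, n = 2), a log2 fold change of 0.72 (edgeR adjusted p = 0.00145). *Tlr4*, the receptor of lipopolysaccharide, fell from 10.9 to 6.85 CPM (log2 -0.66, edgeR adjusted p = 0.00758), while *Tlr1* rose from 0.481 to 2.18 CPM (log2 2.18, edgeR adjusted p = 0.0045). Of 9 genes of the RP105 complex and related receptors, 7 were tested. Against 16.0% called higher and 13.7% lower of all genes tested, 3 of these 7 rose and 1 fell (median log2 0.32). The third to rise, *Tlr2*, lay at an adjusted p of 0.0996 and was not called with any library left out.

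**Figure D2:**
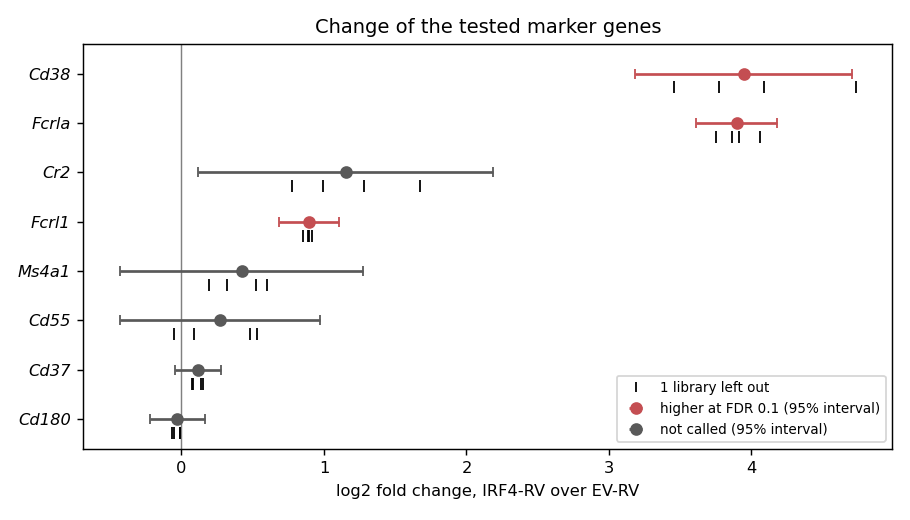
Log2 fold change of IRF4-RV over EV-RV for the 8 tested genes, with 95% intervals from edgeR's quasi-likelihood fit and, as short black lines, the values with 1 library left out. The intervals of *Fcrla*, *Cd38* and *Fcrl1* lie above 0, that of *Cr2* begins at 0.12 without passing the FDR of 0.1, and the other 4 contain 0.

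The order of the 10 genes per kilobase of exon, the scale on which levels of different genes can be compared, changed with IRF4-RV. The genes that moved up were *Fcrla*, *Cd38* and, with few reads, *Fcrl5*. With EV-RV the order was *Cd37* at 79.2 CPM per kilobase, *Cd180* at 10.6, *Fcrl1* at 5.65, *Fcrla* at 3.39 and *Cd55* at 0.364, followed by *Cd38*, *Ms4a1*, *Cr2*, *Fcer2a* and *Fcrl5* at 0.141 or less. Among neighbours in this order, *Cd38* and *Ms4a1* overlapped between libraries, as did *Fcer2a* and *Fcrl5*. With IRF4-RV, *Fcrla* was next to *Cd37*, at 50.6 against 85.8 CPM per kilobase. *Fcrl1* at 10.5 and *Cd180* at 10.4 overlapped, and *Cd38* at 2.20 stood above *Cd55* at 0.440. *Ms4a1* at 0.174 and *Cr2* at 0.127 remained below these, and *Fcrl5* at 0.0700 and *Fcer2a* at 0.00477 were last.

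**Figure D3:**
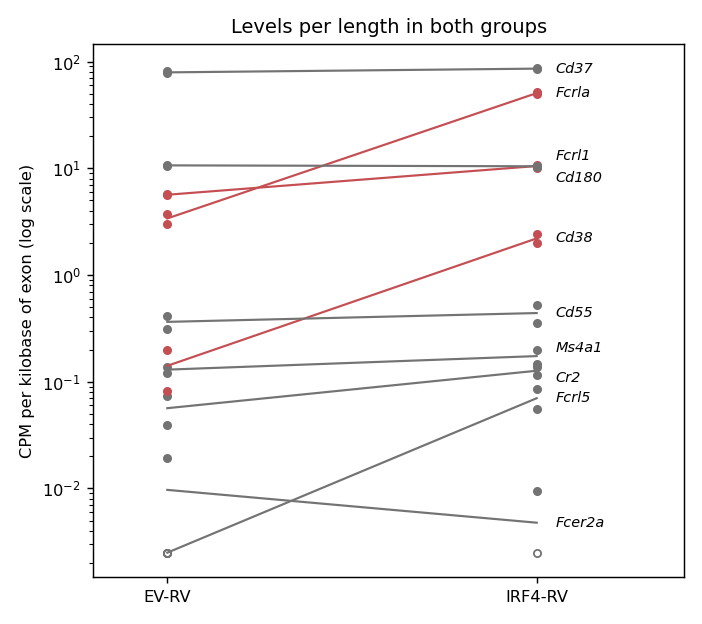
CPM per kilobase of exon (log10 axis) for each of the 10 genes in the EV-RV and IRF4-RV libraries, with 1 point per library, lines joining the group means, called genes in red and levels of 0 as open points at the lower edge. *Fcrla* moves from 3.39 to 50.6 and *Cd38* from 0.141 to 2.20, whereas *Cd37* and *Cd180* keep nearly the same level.

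Other genes of mature B cells, listed for comparison, are also unequal. Of 39 such genes, 35 were tested, of which 22 rose, 4 fell and 9 were not called (median log2 0.58). Of all genes tested, 16.0% were called higher and 13.7% lower, so the 4 falls are no trait of this list. *Cd40*, the receptor for T cell help, was counted 0 and 2 times under EV-RV against 84 and 94 under IRF4-RV. Its mean CPM with IRF4-RV was 27.4 times the mean level of 3 counts in the EV-RV libraries. *Ccr7*, a homing receptor, rose from 46.0 to 319 CPM (log2 2.79). *Btla*, an inhibitory receptor, fell by 0.56 on the log2 scale (edgeR adjusted p = 0.00499). Of the 4 that fell, *Btla* kept log2 fold changes from -0.58 to -0.57 with a library left out. The others were *Bank1*, a B cell adaptor (log2 -0.63, edgeR adjusted p = 0.0561), *Cd2* (-0.31, 0.0465) and *Cxcr5* (-0.26, 0.0696). Their calls lay nearer the threshold and did not hold in every fit with a library left out. *Cd86* had 0 counts in all libraries, and *H2-Aa*, an MHC class II chain, between 15 and 32.

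Early B progenitor surface genes and plasma cell genes were counted beside these. Of 13 early genes, 12 were tested. Against 16.0% called higher and 13.7% lower of all genes tested, 6 of these 12 rose and 5 fell (median log2 0.38). The fall was seen in *Vpreb1* (log2 -1.49), *Vpreb2* (-1.32) and *Igll1* (-1.30) of the surrogate light chain. It was also seen in *Enpep* (-1.17) and in *Il7r* (-0.29, edgeR adjusted p = 0.0686). *Ly6d*, a marker of B cell commitment, rose most (5.51). The others that rose were *Flt3* (2.41), *Il2ra* (1.77), *Bst2* (1.11), *Spn* (0.84) and *Cd93* (0.62). *Il7r* was called without IRF4-RV replicate 1 (adjusted p = 0.0436) but not without EV-RV replicate 1 (0.165), EV-RV replicate 2 (0.136) or IRF4-RV replicate 2 (0.446). Of 11 plasma cell genes, 9 were tested, of which 7 rose, *Irf4* itself included, and 1, *Sdc1* (CD138), fell (log2 -0.81; median log2 of the 9 0.82). The study chose to add *Irf4*, so its rise there is no finding. For this list too, the shares over all genes tested were 16.0% higher and 13.7% lower.

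**Figure D4:**
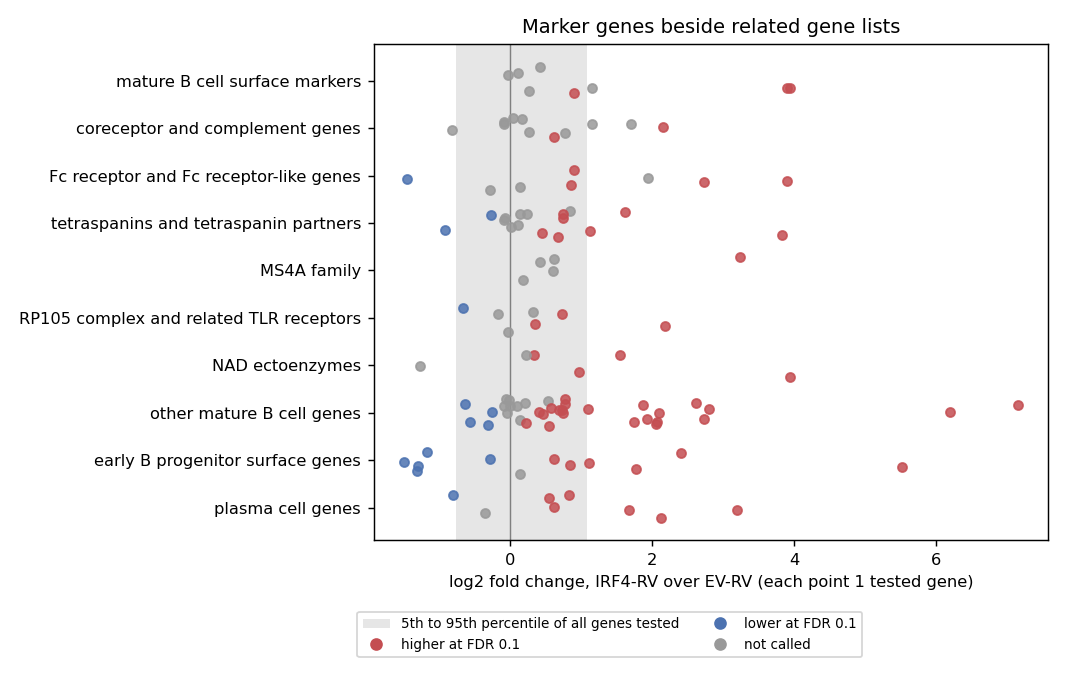
Log2 fold change of IRF4-RV over EV-RV for each tested gene of the 10 markers and of 9 related lists, *Irf4* left out, with genes called higher or lower at an FDR of 0.1 in color and the 5th to 95th percentile of all tested genes in gray. Calls in both directions occur in 6 of the related lists, as among all genes tested. The 10 markers include *Fcrla* and *Cd38* far outside the gray band.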

How the data were processed

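Bulk RNAseq of T8 cells was analyzed, with 2 EV-RV and 2 IRF4-RV libraries grouped by their titles. Per the labels and methods, the authors aligned reads to GRCm38 with STAR (2.4.0j) after FastQC (0.11.2), counted them per gene with featureCounts and tested them with DESeq2 (1.22.1). They deposited raw counts, whole numbers without normalization. Whether strand or multi-mapped reads were used is not given in the sources used here, so overlapping genes and close copies are uncertain. Of 55359 gene IDs, 52083 matched GENCODE M21, from which symbols, coordinates and exon lengths were taken.

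Genes passing edgeR's filterByExpr were tested (edgeR 4.0.16, R 4.3.3, TMM factors, quasi-likelihood F test, Benjamini-Hochberg FDR of 0.1). CPM and CPM per kilobase of exon were computed from the counts with these factors. Standard errors are the log2 fold change over the square root of F. In 10 simulations of 14637 genes with 200 changed, 56.7% of 1.5-fold, 77.0% of 2-fold and 89.1% of 4-fold changes were recovered. Of the calls, 15.2% were false, more than the FDR of 0.1 allows, so adjusted p-values may be somewhat too small. Far more genes were called in the data (29.7%), so the simulated share is not the false share of these calls. Alternatives were DESeq2 1.42.0, its size factors, library size only, other count filters, a replicate block, an FDR of 0.05 and leaving out each library. The markers and gene lists were chosen with earlier results of these data known. Named genes are all markers, their partners, neighbouring tested genes and listed genes. Other genes named were chosen after their values were seen. Some listed genes are not reported here by name.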

Additional observations from a re-analysis of the deposited data

How the results depend on the processing

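*Fcrla*, *Cd38* and *Fcrl1* were called higher, and 0 of the markers lower, under all 11 alternatives. The count of markers called higher was 5 when all genes with at least 1 count were tested (*Cr2*, adjusted p = 0.086, and *Fcrl5* added) and 3 in every other setting but the replicate block. The log2 fold change of *Cd55* ran from -0.0509 without IRF4-RV replicate 1, a reversed sign (adjusted p = 0.951), to 0.527 without IRF4-RV replicate 2. Genes called in all ranged from 3347 at an FDR of 0.05 to 6394 with the replicate block, next to which library size only gave 4610, and from 3573 to 3646 with a library left out. DESeq2 called 3596, of which 3524 were among the 4349 called with edgeR.

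Replicate numbers are shared by the groups, but the labels tie them to no common batch. Deviations of same-numbered libraries from the group means correlated across genes (0.311), with 2 pairs. With the replicate block, 6394 genes were called, 23.4% of those tested as higher, and 5 of the 8 markers were higher, with *Cr2* (adjusted p = 0.0343) and *Cd37* (log2 0.12, adjusted p = 0.0907) added. Replicates differed beyond sampling noise (chi-square per degree of freedom 14.1 and 13.1) and were used as separate samples. For *Ms4a1*, *Cr2*, *Cd55*, *Fcrl5* and *Fcer2a*, few reads limit what can be shown. *Fcrl5* entered the test of all genes with at least 1 count through its IRF4-RV reads alone.

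With a library left out, the coreceptor and complement genes called higher were 1 (without IRF4-RV replicate 2 or EV-RV replicate 1) or 3 (without the others) instead of 2, and other mature B cell genes called lower were 1 or 2 instead of 4. Of the 2 tetraspanins called lower, *Tspan4* kept log2 fold changes from -1.10 to -0.70 with a library left out. *Tspan5*, near the threshold in the main fit (edgeR adjusted p = 0.0726), had -0.32 to -0.24, and its call did not hold. *Cd63*, at 0.84 in the main fit, turned to -0.96 without IRF4-RV replicate 2. In the MS4A list, *Tmem176b* went from 0.62 to 1.16 without IRF4-RV replicate 1.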
